A study of Homo sapiens with 15 samples.

Results

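Expression of 8 genes that are switched on by bone morphogenetic protein (BMP) signalling or restrain it was followed in neuroblastoma cells in which MSX1 was induced. They were the ID genes ID1, ID2, ID3 and ID4, the inhibitory SMAD genes SMAD6 and SMAD7, and the genes for the BMP antagonist NOG and the pseudoreceptor BAMBI. Members were found as the probe sets to which the platform annotation gives exactly 1 gene symbol, that of a member. This gave 16 probe sets of 41091 with a single symbol, and 12 of them, covering all 8 genes, passed a filter on low signal. On each gene's brightest kept probe set, the 8 genes were 8 of 12880 genes tested. The genes were chosen by their signals in these same arrays, in all 5 groups and with the differences between them known, so their values are given as a description: whether a gene passed the threshold of a fit across all genes is stated, and nothing is tested on the members themselves.

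The study measured total RNA of IMR32, an established cell line from a human neuroblastoma. In all groups, controls included, the cells carried MSX1 under a promoter that doxycycline switches on. MSX1 encodes a homeodomain transcription factor. The 15 Affymetrix arrays fell into 5 groups of 3: cells at t = 0, cells given doxycycline at t = 8, t = 24 and t = 48 (induced cells), and cells grown alike without doxycycline to t = 48 (control cells). The labels give no unit of time and do not say whether the line was 1 clone or whether replicates were separate cultures, so the spread between arrays may be technical. Control cells were measured at t = 48 alone, so differences of t = 8 and t = 24 from t = 0 hold both time in culture and induction. Doxycycline was not tested on cells lacking the inducible gene.

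BMP ligands bind paired serine/threonine kinase receptors, which phosphorylate SMAD1, SMAD5 and SMAD9. Together with SMAD4 these enter the nucleus and switch on a set of target genes, of which the ID genes are the best known. ID proteins have a helix-loop-helix domain but no basic DNA-binding region: they pair with E proteins and keep them from forming active dimers with tissue-specific basic helix-loop-helix (bHLH) factors such as HAND2, by which they hold back differentiation in neural lineages. SMAD6, SMAD7 and BAMBI are induced by the same signal and act inside the cell or at its membrane to dampen it, while noggin, the product of NOG, is secreted and binds BMPs before they reach their receptors.

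Promoter windows from 250 bases before to 50 after the annotated start were taken from RefSeq (GRCh38.p14) for 7 of the 8 genes. They are shown for ID1 and ID3, the members with the largest falls at t = 48, and for BAMBI, the member with the largest rise above its own t = 0 level among those with a window. Capitals mark GGCGCC, a GC-rich element that SMAD proteins can bind, and CAGAC, a SMAD-binding element. These and TAATTG, the core of MSX-type homeodomain sites, were searched on both strands. Different motifs can share at most 1 end letter. The windows lie at chr20:31605039-31605338 (+ strand), chr1:23559452-23559751 (- strand) and chr10:28677271-28677570 (+ strand).
ID1: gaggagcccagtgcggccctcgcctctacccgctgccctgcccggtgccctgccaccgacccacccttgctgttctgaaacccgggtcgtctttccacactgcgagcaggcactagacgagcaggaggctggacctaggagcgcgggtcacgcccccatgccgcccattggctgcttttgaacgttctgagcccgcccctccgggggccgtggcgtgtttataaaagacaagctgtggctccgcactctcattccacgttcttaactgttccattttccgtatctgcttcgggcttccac
ID3: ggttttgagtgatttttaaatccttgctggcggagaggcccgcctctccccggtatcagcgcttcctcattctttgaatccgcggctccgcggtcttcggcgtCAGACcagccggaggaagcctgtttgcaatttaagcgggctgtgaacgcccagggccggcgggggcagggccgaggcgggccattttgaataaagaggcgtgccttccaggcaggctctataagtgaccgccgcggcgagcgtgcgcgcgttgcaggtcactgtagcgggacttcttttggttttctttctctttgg
BAMBI: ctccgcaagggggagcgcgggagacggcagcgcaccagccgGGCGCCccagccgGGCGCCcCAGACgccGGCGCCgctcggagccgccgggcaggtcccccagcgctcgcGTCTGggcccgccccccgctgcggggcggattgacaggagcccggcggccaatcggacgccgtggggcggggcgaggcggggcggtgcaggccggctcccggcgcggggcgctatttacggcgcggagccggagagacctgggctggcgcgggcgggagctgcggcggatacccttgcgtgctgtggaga

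The BAMBI window held GGCGCC at 3 places, starting at positions -209, -196 and -181 from the start site, and CAGAC on either strand at 2. The ID3 window held CAGAC once, at position -147, as did that of ID4, at -205, and the ID1 window held none of the 3 motifs. Of all 35116 windows of the same length, 19.2 percent held GGCGCC, 45.3 percent CAGAC and 7.38 percent TAATTG. Among the 9 windows of the members, TAATTG was found in 2 of the 3 alternative windows of SMAD7, and GGCGCC in that of BAMBI alone. A match is a string of letters and not a measured site, and its absence from these 300 bases says nothing of sequence farther away.

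Signals are linear MAS5 intensities, each array scaled as a whole to a mean of 100.01 after trimming 2 percent at each end. Differences between groups are on the log2(signal + 5.16) scale, which understates changes of low signals, and carry the standard error (SE) of the fit. "Rose", "fell", "higher" and "lower" are used of members that passed an adjusted p of 0.05 in limma's fit over 12880 genes. The spiked-in bioC hybridisation control was dim on 2 arrays, at 101 for replicate 1 of induced t = 24 and 116 for replicate 3 of induced t = 48, and lay between 404 and 483 on the other 13. The 18S rRNA control stood apart on t = 0 replicate 3, at 590.5 against 73.2 to 183 on the other arrays. Without that array the members that passed against t = 0 numbered 2, 3 and 6 for induced cells at the 3 times and 5 for control cells (3, 3, 8 and 5 with it), and its part in these results was not tested. Of the cell type markers, GATA3 and CHGA averaged 3419.5 and 1566 over the arrays, while TH, which encodes the first enzyme of catecholamine synthesis, averaged 3.28. The markers of Schwann cells were near 0, with S100B at 1.25 and SOX10 at 5.21.

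MSX1, the induced gene, was read first. On its brighter probe set the signals in replicate order were 116, 122 and 95.5 at t = 0, 184, 158 and 140.1 at t = 8, and 142, 172 and 182 at t = 24. Those at t = 48 were 96.9, 67.7 and 84.9 in induced and 46.5, 50.2 and 55.5 in control cells. On this probe set the group means were highest at t = 8 and t = 24. Its difference from t = 0 passed at t = 24 (0.55, limma adjusted p = 0.0299) and not at t = 8 (0.51, limma adjusted p = 0.128). At t = 48 every induced array was above every control array (log2 difference 0.65, SE 0.15, limma adjusted p = 0.0165). Both groups averaged less than at t = 0: the difference passed in control cells (-1.05, limma adjusted p = 0.00501) and not in induced cells (-0.40). The dimmer probe set of MSX1 went the other way at t = 8 and t = 24: its mean was highest at t = 0 (30.4) and lower at t = 8 (23.2) and t = 24 (21.8). At t = 48 it differed by -0.42 between induced and control cells, and none of these differences passed. Its difference from t = 0 at t = 48 passed over all kept probe sets in induced cells (-0.99) and not in control cells (-0.57). Whether either probe set reads the construct is not known here.

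**Figure D1:**
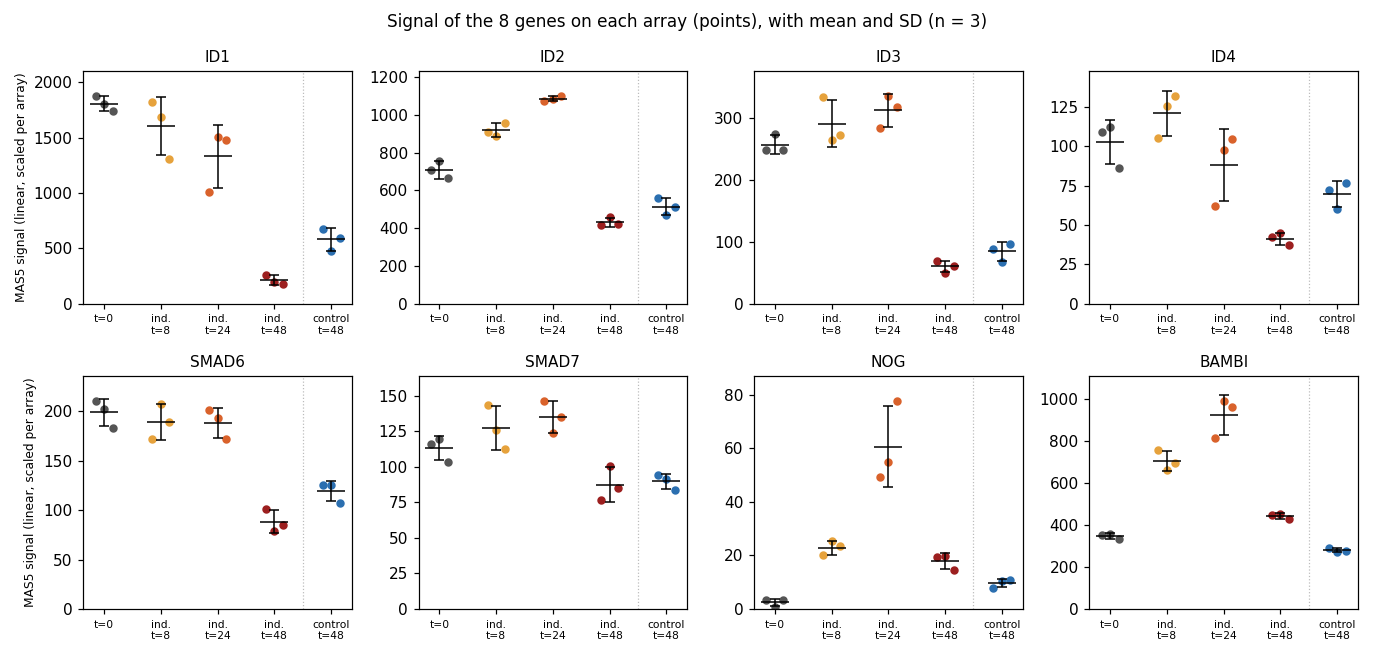
MAS5 signal (linear, scaled per array) of the 8 genes on their brightest kept probe set, by group; each point is an array, and the bars give mean and SD of 3 arrays. ID1 fell from a mean of 1808 at t = 0 to 212 in induced cells at t = 48, whereas NOG and BAMBI were highest at t = 24, at 60.6 and 923.

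ID1 held the largest fall of the 8 genes. Its signals were 1879, 1801 and 1742 at t = 0, 1820.5, 1684 and 1309 at t = 8, and 1007, 1507 and 1482 at t = 24. Those at t = 48 were 262, 200.3 and 175 in induced and 674, 476 and 593 in control cells. The first 3 groups were high and followed each other with overlapping ranges, control cells lay below all of them, and induced cells at t = 48 lay below the control cells without overlap. Induced cells at t = 48 kept 11.7 percent of the t = 0 mean and control cells 32.1 percent. On the log2 scale ID1 fell by 3.08 (SE 0.19) in induced cells between t = 0 and t = 48 and by 1.64 (SE 0.19) in control cells. Induced cells were lower than control cells by 1.44 (SE 0.19). At t = 8 and t = 24 its differences from t = 0 were -0.18 and -0.46 and did not pass. The lowest t = 24 value came from an array with weak hybridisation controls, and without it the difference at t = 24 was -0.27.

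ID3 was, like ID1, far lower at t = 48 than at t = 0 in both induced and control cells. Its signals were 247, 274 and 248 at t = 0, 333, 264 and 272 at t = 8, and 283, 335 and 317 at t = 24. By t = 48 they were 69.1, 50.4 and 61.3 in induced and 88.5, 67.6 and 97.0 in control cells. The levels at t = 0, t = 8 and t = 24 formed an upper tier, with t = 8 overlapping both neighbours, and the groups at t = 48 formed a lower tier in which they overlapped each other. The differences of ID3 from t = 0 were 0.17 at t = 8 and 0.28 at t = 24, and neither passed. At t = 48 ID3 fell by 2.01 (SE 0.14) in induced and by 1.56 (SE 0.14) in control cells. The difference between induced and control cells at t = 48 was -0.45 (SE 0.14), which did not pass, though it did without control replicate 2 (-0.59).

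ID2 passed as higher at t = 8 and t = 24 before it fell. ID1 and ID3 did not pass at those times, though the group means of ID3 came in the same order as those of ID2. The ID2 signals were 707, 758 and 664 at t = 0, 912, 888 and 958 at t = 8, and 1075, 1082 and 1102 at t = 24. At the last time they were 416, 459 and 421 in induced and 559, 471 and 514 in control cells. All 5 groups were separate, in the order t = 24, t = 8, t = 0, control t = 48 and induced t = 48. ID2 rose by 0.37 (SE 0.08) at t = 8 and by 0.61 at t = 24, a level of 153 percent of the t = 0 mean. It then was lower than at t = 0 by t = 48, where it fell by 0.71 in induced and by 0.46 in control cells. The difference of -0.25 between induced and control cells did not pass. The call at t = 8 was lost when any 1 of 5 of the 6 arrays compared was left out (0.33 to 0.40 in those fits), all but t = 0 replicate 2. That in control cells was lost without t = 0 replicate 1 or 2 or control replicate 2 or 3 (-0.46 to -0.40).

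ID4 was the 1 ID gene whose difference between t = 0 and control cells did not pass. Its signals were 109, 112 and 86.5 at t = 0, 105, 125 and 132 at t = 8, and 62.0, 97.5 and 105 at t = 24. Induced cells at t = 48 had 42.1, 44.7 and 37.1, and control cells 72.2, 60.2 and 76.4. Neighbouring groups overlapped in the order t = 8, t = 0, t = 24 and control t = 48, and induced cells at t = 48 were below all others. ID4 fell by 1.21 (SE 0.17) between t = 0 and t = 48 in induced cells, while its difference of -0.53 in control cells did not pass. Induced cells were lower than control cells by 0.68 at t = 48, a call that was lost without any 1 of the induced arrays or without control replicate 1 or 3 (-0.74 to -0.62).

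The inhibitory SMAD genes differed from each other. SMAD6, whose protein competes with receptor-activated SMADs, had signals of 210.5, 203 and 184 at t = 0, 172, 207 and 189 at t = 8, and 201, 193 and 172 at t = 24. At t = 48 they were 101, 79.1 and 84.6 in induced and 125, 125 and 108 in control cells. The first 3 groups overlapped, and at t = 48 control cells lay below them and induced cells lower still, without overlap. SMAD6 fell by 1.13 (SE 0.11) in induced and by 0.71 in control cells from t = 0, and induced cells were lower than control cells by 0.42. This last call was lost without induced replicate 2 or 3 or control replicate 1 or 2 (-0.39 to -0.34), and that of control cells without t = 0 replicate 1 or control replicate 3 (-0.67 and -0.65).

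SMAD7, which also recruits ubiquitin ligases to the receptors, had the smallest range of group means of the 8 on the log2 scale. Its signals were 116, 119.9 and 104 at t = 0, 143, 126 and 113 at t = 8, and 146, 124 and 135 at t = 24. At t = 48 they were 76.5, 101 and 85.2 in induced and 94.3, 91.1 and 83.7 in control cells. The groups at t = 48 were low and overlapped each other, with a difference of -0.04 (SE 0.11). SMAD7 was lower at t = 48 than at t = 0 in induced cells by 0.36, a call lost without any 1 of the t = 0 arrays or without induced replicate 1 or 3 (-0.42 to -0.27). The difference of -0.32 in control cells did not pass.

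NOG and BAMBI peaked at t = 24. NOG had signals of 3.2, 0.9 and 3.4 at t = 0, 20.1, 25.2 and 23.4 at t = 8, and 49.2, 54.9 and 77.6 at t = 24. At t = 48 they were 19.3, 19.7 and 14.4 in induced and 8.0, 10.5 and 10.7 in control cells. All 5 groups were separate, in the order t = 24, t = 8, induced t = 48, control t = 48 and t = 0. NOG reached the median of its array on 6 of the 15 arrays, none of them at t = 0 or in control cells, so it entered the fit only through groups in which it was high. It rose by 1.89 (SE 0.17) at t = 8 and 3.09 at t = 24, and remained higher than at t = 0 in induced (1.59) and control cells (0.97) at t = 48. These sizes depend on the offset: at t = 24 the difference was 4.21 with an offset of 1 and 2.03 with an offset of 16. Induced cells were higher than control cells at t = 48 by 0.62, a call that was lost when any 1 of the 6 arrays was left out (0.53 to 0.73). The rise in control cells was lost without t = 0 replicate 1 or 2 or control replicate 2 or 3 (0.81 to 1.04).

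BAMBI, which encodes a transmembrane protein like a type I receptor without the kinase domain, had little spread within groups. Its signals were 355, 358 and 332 at t = 0, 757, 665 and 698 at t = 8, and 814, 992 and 964 at t = 24. At t = 48 they were 450.1, 453 and 428 in induced and 290.1, 272 and 276 in control cells. All 5 groups were separate, and BAMBI was the 1 member above its t = 0 level in induced cells and below it in control cells at t = 48. It rose by 1.01 (SE 0.08) at t = 8 and by 1.39 at t = 24, and was higher in induced than in control cells at t = 48 by 0.66. Its difference from t = 0 at t = 48 was 0.34 in induced cells, where the call was lost without t = 0 replicate 3 or induced replicate 2 (0.31 and 0.33), and -0.31 in control cells, which did not pass.

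**Figure D2:**
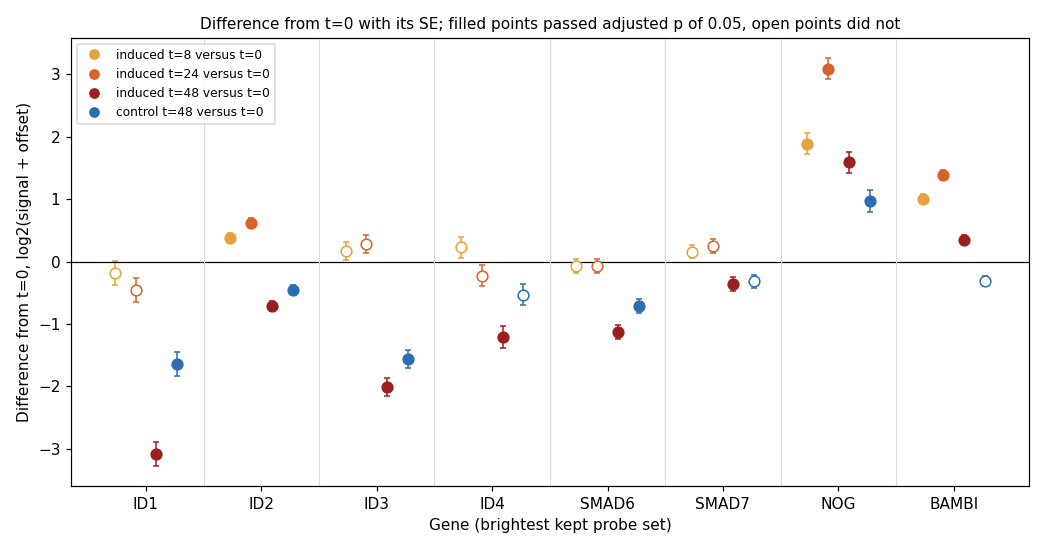
Difference of each group from t = 0 on the log2(signal + offset) scale, with its SE, for the 8 genes; filled points passed an adjusted p of 0.05 in the fit over all genes. NOG and BAMBI lie above 0 in all induced groups, and ID1 reaches -3.08 in induced cells at t = 48.

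Counted over comparisons that share the t = 0 arrays, more members passed at t = 48 than before it. At t = 8, 3 of 8 passed, ID2, NOG and BAMBI, all higher, where 2.1 percent of all genes passed and 1.1 percent were higher. At t = 24 the same 3 genes passed, all higher, where 10.8 percent of all genes did and 5.95 percent were higher. At t = 48 all 8 passed in induced cells, with 6 lower and NOG and BAMBI higher, where 18.1 percent of all genes passed, 9.9 percent higher and 8.2 percent lower. In control cells at t = 48, 5 passed, with ID1, ID2, ID3 and SMAD6 lower and NOG higher, where 0.846 percent of all genes passed, 0.481 percent higher and 0.365 percent lower. NOG is included in these counts and those below, though it was under its array's median on every t = 0 and control array. It entered the fit only through induced cells. The median difference from t = 0 over the members was 0.20, 0.26 and -0.92 in induced cells at the 3 times and -0.49 in control cells, against 0.01, -0.01, -0.02 and 0 over all genes. Nothing is read from these shares, since the genes were chosen with these contrasts known. With only the t = 0 and control arrays fitted, no member and no other gene passed by limma in control cells. All 8 members had an unadjusted p under 0.05 there, but the share of all genes at that cutoff is not given, so nothing is read from it. From the fit of all groups the count in control cells was 2 without t = 0 replicate 1 or control replicate 3, and 3 without t = 0 replicate 2 or control replicate 2. At t = 8 it was 2 without any 1 array other than t = 0 replicate 2, and in induced cells at t = 48 it was 6 or 7 without any 1 array.

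The step between t = 24 and t = 48 in induced cells was the 1 comparison in which all 8 genes moved in the same direction. All 8 fell, where 1.61 percent of all genes did and 3.99 percent passed in either direction, and the groups of no member overlapped (19.9 percent of all genes). The log2 differences were -2.62 for ID1, -2.28 for ID3, -1.50 for NOG, -1.32 for ID2, -1.06 for SMAD6, -1.04 for BAMBI, -0.98 for ID4 and -0.61 for SMAD7, with a median of -1.19 (all genes -0.01). All 8 remained called when any 1 of the 6 arrays was left out. With only these groups fitted 6 passed, without ID4 and SMAD7. Without both arrays with weak hybridisation controls 7 remained, and SMAD7 (-0.53) did not pass. MSX1 also fell in this step, by 0.96 (SE 0.15, limma adjusted p = 0.0021). From t = 8 to t = 24, by contrast, NOG (1.21) and BAMBI (0.38) were the members that passed, both higher, where 6.27 percent of all genes passed and 3.45 percent were higher. The call of BAMBI there was lost without induced t = 8 replicate 2 or 3 or induced t = 24 replicate 2 or 3 (0.33 to 0.37). Control cells were not measured at t = 24, so this step cannot be set against the same step without doxycycline.

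At t = 48, induced and control cells could be compared at a matched time. Of the 8 genes 5 passed, with ID1, ID4 and SMAD6 lower and NOG and BAMBI higher in induced cells, where 8.55 percent of all genes passed, 5.26 percent higher and 3.28 percent lower. The groups did not overlap for 6 members, the 5 and ID2, against 31.2 percent of all genes. ID1 and BAMBI remained called when any 1 of the 6 arrays was left out. ID4, NOG and SMAD6 did not pass with arrays centred on their median or without the filter, and NOG and SMAD6 did not with only these groups fitted. The count was 2 without induced replicate 2 or 3 or control replicate 1, 3 without induced replicate 1 or control replicate 3, and 4 without control replicate 2. The 18S rRNA control also differed between these groups, with 114 to 183 on induced and 73.2 to 94.3 on control arrays, and its part in these differences was not tested.

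For 7 of the 8 genes the difference from t = 0 at t = 48 had the same sign in induced and control cells, and for BAMBI the signs were opposite. For SMAD7, ID3, ID2 and SMAD6 the difference in control cells amounted to 88.4, 77.7, 65.2 and 63.2 percent of that in induced cells on the log2 scale. For ID1 and ID4 it amounted to 53.4 and 43.5 percent. The differences of SMAD7 (-0.32) and ID4 (-0.53) in control cells did not pass. NOG, below its array's median at t = 0 and in control cells, differed by 0.97 in control cells, or 1.70 with an offset of 1 and 0.48 with an offset of 16, so no share is given for it. These shares carry the errors of both differences and use the same t = 0 arrays in both. They hold for the brightest probe set alone. The other kept probe set gave -0.66 in control and -0.47 in induced cells for ID2, and -0.32 and -0.96 for SMAD6. Those of ID4 gave -0.24 and -0.56, and -0.18 and -0.30. Of these differences the -0.56 alone passed over all kept probe sets.

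**Figure D3:**
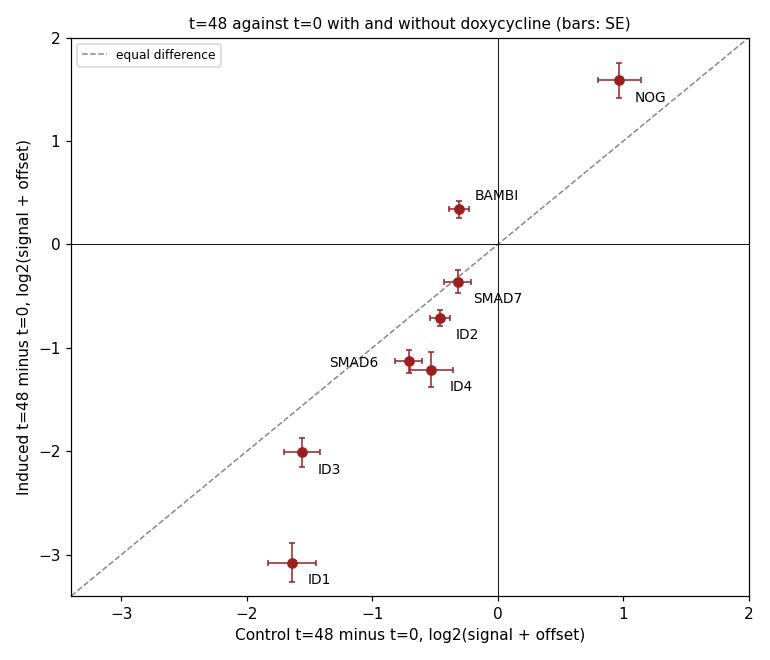
Difference from t = 0 of control (horizontal) and induced cells (vertical) at t = 48, on the log2(signal + offset) scale with SE. ID1 (-1.64 and -3.08) lies farthest below the dashed line of equal difference, SMAD7 (-0.32 and -0.36) lies near it, and BAMBI (-0.31 and 0.34) lies left of and above the origin.

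More than 1 kept probe set was available for ID2, ID4 and SMAD6. Calls of the other probe sets come from a fit over 25036 kept probe sets, not over 12880 genes. In that fit some calls of brightest probe sets were lost too: ID2 at t = 8 and SMAD7 in induced cells at t = 48, both against t = 0. The same held for SMAD6 and NOG between induced and control cells. The other probe set of ID2 was also highest at t = 24, where it differed from t = 0 by 1.11 (SE 0.18), and it differed by -1.58 between t = 24 and t = 48, both past the threshold over all kept probe sets. Its difference from t = 0 at t = 8 (0.56) and those at t = 48 in induced (-0.47) and control cells (-0.66) did not pass. At t = 48 it read 0.19 between induced and control cells, against -0.25 on the brightest, and neither passed. For ID4 the other kept probe sets gave -0.56 and -0.30 between t = 0 and t = 48 in induced cells, the first past the threshold, against -1.21 on the brightest. Between induced and control cells at t = 48 they gave -0.32 and -0.12, against -0.68, and between t = 24 and t = 48 they gave -0.35 and -0.43, against -0.98, none of them past the threshold. From t = 8 to t = 24 these probe sets of ID4 gave -0.53, past the threshold, and -0.07, against -0.46 on the brightest, which did not pass. The second probe set of SMAD6 gave -0.96 between t = 0 and t = 48, which did not pass, on signals of 23.3, 25.8 and 4.3 in which the last, from an array with weak hybridisation controls, stood apart. The 4 member probe sets that failed the filter, 2 of ID4 and 2 of SMAD6, had signals of at most 25.3.

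**Figure D4:**
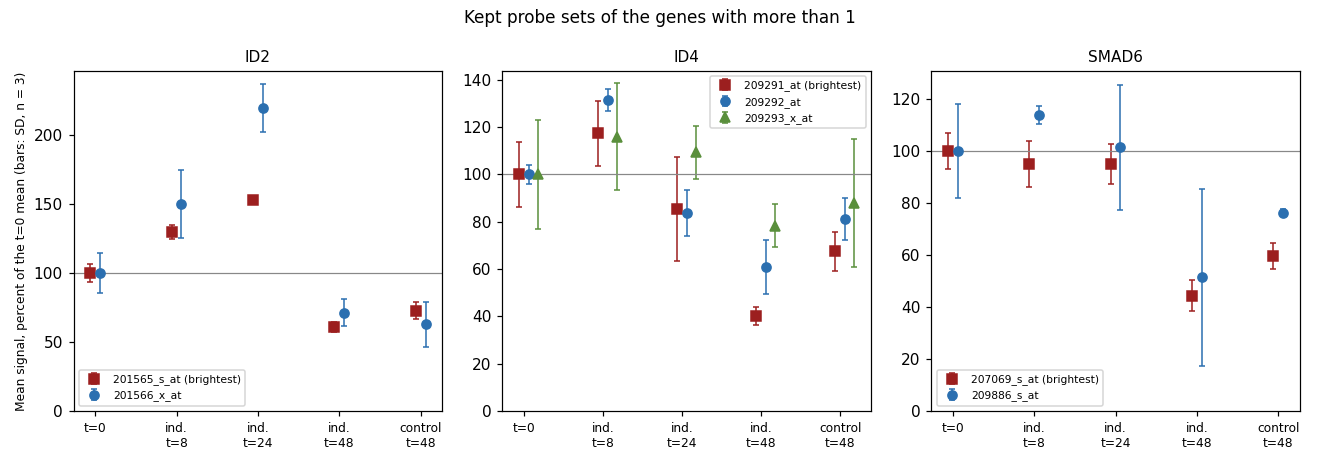
Mean signal of each kept probe set of ID2, ID4 and SMAD6 as a percent of its t = 0 mean, with SD over 3 arrays. Both ID2 probe sets are highest at t = 24, and every probe set shown is below 100 percent at t = 48 in induced and control cells.

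Over the 15 arrays, the log2 values of ID1 correlated most closely among the members with SMAD6 (r = 0.95), ID3 (0.94) and ID4 (0.93), which ranked 9, 15 and 16 among the 12879 other genes. NOG (-0.02) and BAMBI (0.35) did not follow it. The 5 genes outside the members that were most like ID1 were TLX2 (0.98), which encodes a homeobox protein, LAYN (0.97), PCGF1 (0.97), C11orf96 (0.97) and FKBP1A (0.96). The members nearest to NOG were BAMBI (0.85, rank 57) and ID2 (0.50, rank 1418). The other genes nearest to NOG were FRMD4A (0.95), CHRM1 (0.94), ACTN1 (0.93), COL1A1 (0.93) and TRIL (0.93). These correlations describe 15 arrays that fall into 5 groups and share their arrays, and they carry no test.

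COL1A1, named above for its likeness to NOG, is among 5 fibroblast markers, 4 of which passed the filter. It made up most of their summed signal, so a course of the sum like that of NOG follows from this choice. The sum was 360 to 478 at t = 0, 596 to 701 at t = 8 and 990.5 to 1315 at t = 24. At t = 48 it was 669 to 849 with doxycycline and 482 to 583 without. COL1A1 (349.6 to 919 between t = 0 and t = 24) and LUM (9.73 to 160) made up most of it, while COL1A2 stayed at or below 14.9 and DCN at or below 22.2 in the means of all groups. PDGFRB averaged 21.4 at t = 0 and 34.9, 34.7 and 31.5 in induced cells at t = 8, t = 24 and t = 48. In control cells it averaged 31.2. In such bulk RNA a change in the number of cells of a type and a change in RNA per cell cannot be told apart. The part of these markers in the course of NOG was not tested.

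Other genes of the pathway were taken from 7 lists with 67 genes, of which 49 were measured. In induced against control cells at t = 48, 9 of the 49 passed, 5 higher and 4 lower, where 8.55 percent of all genes passed. Among ligands, TGFB2, a TGF-beta ligand, was the 1 of 7 to pass and was lower (-0.83, SE 0.12, limma adjusted p = 0.00108). Among receptors, ACVRL1, a type I receptor (1.0, SE 0.19), and ACVR2A, a type II receptor (0.32), were higher, and the coreceptor gene TGFBR3 (-0.58) was lower. ACVRL1 was dim, with means of 17.2 in induced and 6.07 in control cells, where the array medians lay between 18.1 and 22.6. SMAD9 was the 1 of 6 signalling SMAD genes to pass. It was lower in induced cells, at 1091 ± 50.6 (SD, n = 3) against 1531 ± 21.7 in control cells (-0.49, SE 0.07, limma adjusted p = 0.000941). SMAD1, SMAD5 and SMAD4 differed by 0.07, 0.10 and 0.09 and did not pass. TGFBR3 lost its call without induced replicate 2 or 3 or control replicate 1 or 3, and ACVR2A without induced replicate 3 or control replicate 2, with counts of 7 to 9 over these fits.

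Among 7 other BMP-response genes, HEY1, which is also a Notch effector (4.25), and DLX5, a homeobox gene (0.67), were higher at t = 48 in induced than in control cells, and MSX2 (0.27) and ATOH8 (-0.15) did not pass. Of 9 bHLH factors and E proteins, the partners that ID proteins hold back directly or indirectly, HAND1 was higher (0.49) and NHLH2 lower (-0.77). By limma none of the 4 other secreted antagonists and 7 intracellular brakes passed (1 and 2 at an unadjusted p under 0.05). The share of all genes at that cutoff is not given, so nothing is read from these 2 counts. FST, which encodes the activin and BMP antagonist follistatin, differed by 0.58 and SKIL, a transcriptional corepressor of SMADs, by 0.60. The E protein genes TCF3, TCF4 and TCF12 differed by 0.18, 0.14 and 0.25 and did not pass. In the step from t = 24 to t = 48 in induced cells, in which all 8 members fell, 6 of the 49 genes passed (3.99 percent of all genes), with a median of 0.01. MSX2 (-1.69, SE 0.15, limma adjusted p = 3.57e-05), ATOH8 (-0.82), SMAD9 (-0.39) and HAND1 (-0.36) fell, and HEY1 (1.07) and CHRDL1, which encodes a secreted BMP antagonist (0.73), rose. The call of HAND1 was lost without any 1 of the 6 arrays, and BMP2 and TCF3 passed without induced t = 24 replicate 1, as INHBA did without induced t = 48 replicate 1.

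From t = 0, the pathway genes that passed were 8 of 49 at t = 8 (4 higher), 12 at t = 24 (10 higher), 14 at t = 48 in induced cells (10 higher) and 3 in control cells (2 higher), where 2.1, 10.8, 18.1 and 0.846 percent of all genes passed. At t = 8 HEY1 (2.16), HAND1 (0.85) and DLX5 (0.71) rose and NEUROG2 (-1.62), TGFB2 (-0.73) and SMAD9 (-0.58) fell. The fall of SMAD9 did not last: it rose by 0.62 from t = 8 to t = 24. Its difference from t = 0 at t = 24 was 0.04 and did not pass. At t = 24 HEY1 (3.03), MSX2 (1.83) and DLX5 (1.31) rose, and TGFB2 (-0.82) and NHLH2 (-0.59) fell. Of 9 receptor genes 5 rose: ACVRL1 (1.01, from a dim mean of 13.9 at t = 0), ACVR1 (0.55), ACVR1B (0.41), BMPR2 (0.36) and ACVR2A (0.34). ACVR1B lost this call without t = 0 replicate 1 or 3 or induced t = 24 replicate 2 or 3. BMPR2 lost it without t = 0 replicate 2 or any 1 of the induced t = 24 arrays. At t = 48 HEY1 (4.10), DLX5 (1.22) and SKIL (0.83) were highest and ATOH8 (-0.78), TGFB2 (-0.64) and NHLH2 (-0.62) lowest in induced cells. In control cells CHRDL1 (0.80) and DLX5 (0.55) rose and ATOH8 (-0.63) fell. Without 1 array the counts were 5 to 8, 10 to 13, 12 to 16 and 1 to 3. NEUROG2 lost its call without any 1 of the t = 0 arrays, SKIL without any 1 array but induced t = 48 replicate 1, and DLX5 in control cells without t = 0 replicate 2 or 3 or control replicate 2 or 3. ATOH8 in control cells lost it without control replicate 3.

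**Figure D5:**
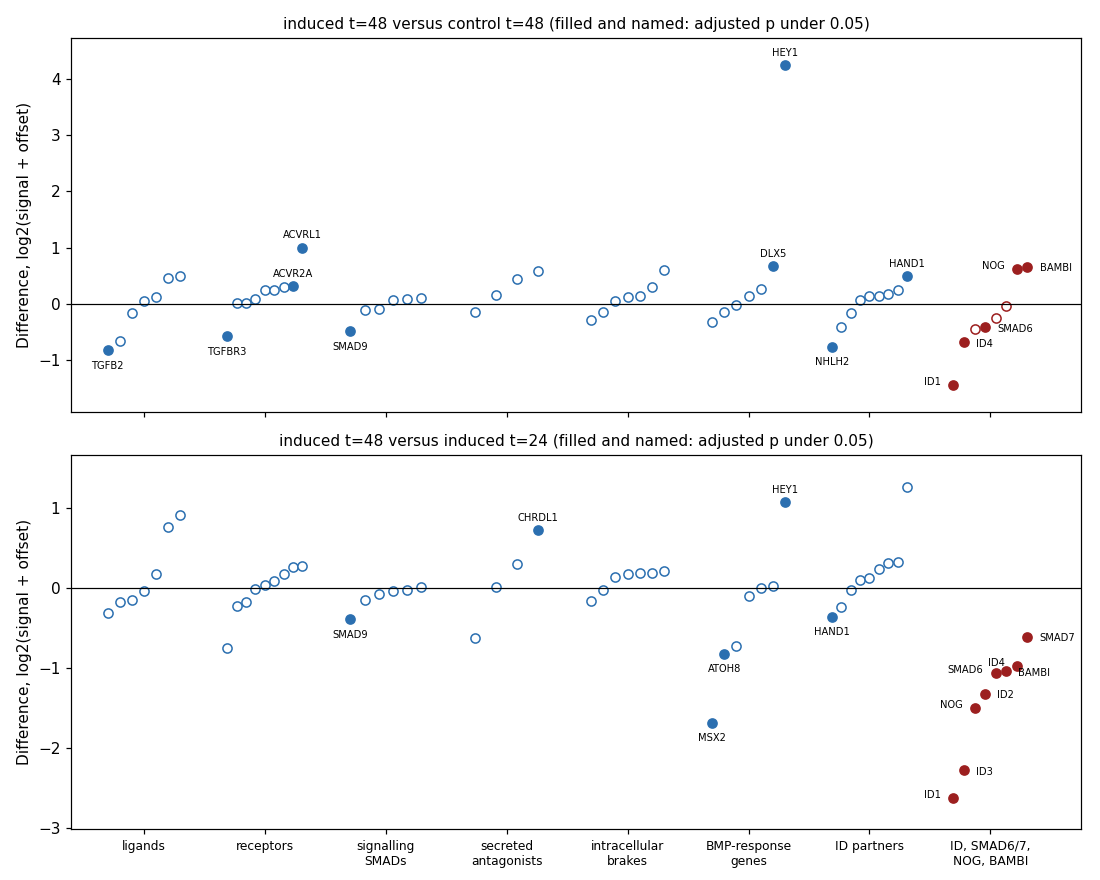
Difference between induced and control cells at t = 48 (top) and between induced cells at t = 48 and t = 24 (bottom), on the log2(signal + offset) scale, for the pathway lists (blue) and the 8 members (red); each point is a gene, and filled, named points passed an adjusted p of 0.05. All 8 members are below 0 in the lower panel, whereas the measured pathway genes have a median of 0.01 there.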

How the data were processed

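The authors deposited linear intensities of 15 arrays; the submitters' processing notes name MAS5 and GCOS, and version and settings are not given in the sources used here. No genome build is given in the sources used here, and promoter windows are RefSeq's (GRCh38.p14). Of 54675 probe sets, 62 controls, 1801 with several symbols and 11721 not listed in the platform annotation were left out. Symbols were updated through Entrez identifiers (41037 of 41091 matched). An offset of 5.16, the mean lower quartile of the arrays, was added before log2. Probe sets at or above their array's median on at least 3 arrays were kept, and each gene's brightest was used (12880 genes). Group means were fitted to all 15 arrays with limma 3.58.1 (lmFit and eBayes, R 4.3.3, two-sided), with Benjamini-Hochberg adjustment over all genes and a threshold of 0.05. The fit was tested on simulated data first, and a gene that did not pass may still have changed. The members and the pathway, marker and motif lists were chosen with earlier results of these data known. Named pathway genes are, per comparison, up to 3 passing genes with the largest rise and up to 3 with the largest fall, and those on which small counts rest. Genes likest to ID1 and NOG are the 5 of highest Pearson correlation. With 3 arrays a group, precision is limited. Some items are not reported here. Figures were drawn with matplotlib 3.10.9.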

Additional observations from a re-analysis of the deposited data

How the results depend on the processing

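No alternative turned the sign of a member difference that had passed: of 973 recomputed member differences, 933 stayed within 1 residual SD of the value reported and 40 moved by more. Counts of members that passed were less stable. For induced against control cells at t = 48 (5 members) the count was 2 with arrays centred on their median, without a filter or at an adjusted p of 0.01, and 3 with probe sets averaged or with only the compared groups fitted. For control cells against t = 0 (5) it was 3 with arrays centred, without a filter or at 0.01. With only the compared groups fitted it was 0 by limma (8 at an unadjusted p under 0.05). For induced t = 24 against t = 8 (2) it was 1 with arrays centred, without a filter, with only the compared groups fitted or at 0.01. On the second-brightest kept probe set, which 3 members have, the count was 1 for t = 24 against t = 0 and for t = 48 against t = 24. It was 0 by limma elsewhere, with 1, 1, 2, 1 and 0 members at an unadjusted p under 0.05 for control t = 48, t = 8 and t = 48 against t = 0, t = 24 against t = 8, and induced against control cells. Except where no gene passed, member and pathway counts under other settings or without 1 array lack the share of all genes under that setting. A change in such a count cannot be told from a change over all genes. Counts at an unadjusted p are given throughout without the share of all genes at that cutoff, and nothing is read from them.

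Of the pathway genes, centring gave 0 for control cells against t = 0 (3 as reported; 6 at an unadjusted p under 0.05), 7 for t = 48 against t = 0 (14) and 5 for t = 8 (8). Fitting only the compared groups gave 0 (10 unadjusted), 7 and 2 there and 1 for t = 24 against t = 8 (6). A threshold of 0.01 gave 5 for t = 8 and 3 for t = 24 against t = 8. The second-brightest probe set, which 34 of the genes have, gave 0 (3 unadjusted) for control cells, 3, 6 and 7 for t = 8, t = 24 and t = 48 against t = 0, 1 for t = 24 against t = 8, 2 for t = 48 against t = 24 and 5 for induced against control cells. The cause of these shifts was not tested, beyond the fewer arrays or genes that some settings use.

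Leaving out 1 array gave 2 to 4 members for induced against control cells at t = 48, and against t = 0 it gave 2 to 3 at t = 8, 3 at t = 24, 6 to 7 at t = 48 and 2 to 5 in control cells. It gave 1 to 2 for t = 24 against t = 8 and 8 for t = 48 against t = 24. For pathway genes these were 7 to 9, 5 to 8, 10 to 13, 12 to 16, 1 to 3, 4 to 5 and 5 to 7. Offsets of 1 and 16, quantile normalization, an intensity trend and leaving out the arrays with weak hybridisation controls kept all 14 counts within 1.5 times. So did the replicate number as a block, with 4 members for induced against control cells, 2, 3 and 7 for t = 8, t = 24 and t = 48 against t = 0, and 4 in control cells. No pairing by number was seen: 3 of 30 same-numbered pairs had deviations correlated above 0.1 (median 0.01), against 8 of 60 other pairs (median 0.005). The highest correlation, 0.37, was between the 2 arrays with weak hybridisation controls, whose numbers differ, and its cause was not tested. Of 15 arrays, 3 were closest to their own number. With deviations taken from means of 3 arrays, a weak pairing could be missed.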
